A study of Mus musculus with 6 samples.

Results

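The secreted Wnt antagonists examined here are 7 genes, Sfrp1, Sfrp2, Sfrp4, Sfrp5, Frzb, Wif1 and Dkk2, each with 1 feature among the 22206 of a mouse Clariom S array. They were chosen by symbol with values of these hearts already known, so their levels and differences are given as a description and not as a test. Arrays held RNA from 6 infarcted whole hearts of male mice, 1 array per heart, in 3 groups of 2. TTg hearts carried Tcf21iCre, a Tomato reporter and MGTH2A and were taken 3 months after the left coronary artery was tied. Ctrl hearts carried Tcf21iCre and Tomato without MGTH2A and were taken at 3 months or at 2 months, which the sample titles give as 12W and 8W. The labels do not spell out MGTH2A, which is read here, from general knowledge, as a transgene of Mef2c, Gata4, Tbx5 and Hand2. All mice were 8 weeks old at ligation, and those with an ejection fraction over 45% soon after it had been removed. The Tcf21 promoter directs the Cre to fibroblasts of the heart, and when the Cre was activated is not given in the sources used here.

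Wnt proteins are secreted lipid-bearing signals that bind Frizzled receptors and Lrp5 or Lrp6 co-receptors, which stabilises beta-catenin or acts through polarity and calcium branches. Sfrp proteins and Frzb carry a cysteine-rich domain like that of Frizzled and bind Wnts outside the cell, Wif1 binds Wnts through a domain of its own, and Dkk2 binds the Lrp co-receptors. In the heart these genes are known mainly from fibroblasts and from wound repair, and Sfrp2 has also been linked in mice to the processing of procollagen.

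The median of an array was between 4.91 and 5 on the log2 scale, and its highest value was 19.93, at which differences can be compressed. Replicates correlated across features at 0.989 for TTg, 0.986 for Ctrl at 3 months and 0.984 for Ctrl at 2 months. Mef2c was at 15.93 and 13.94 in TTg, against 12.52 and 12.87 in Ctrl at 3 months, and Tbx5 was at 10.72 and 9.31 in TTg, against 6.42 and 7.47. Hand2 was at 9.40 and 8.13 in TTg, against 8.01 and 7.57, and Gata4 overlapped, at 14.05 and 13.43 in TTg, against 13.22 and 13.75. The features do not separate transgene from endogenous transcripts. Of 6 cardiomyocyte markers, Myl2 was at the ceiling of 19.93 on every array, and Ryr2, the lowest of them, was at 16.06 and 16.49 in TTg, against 14.95 and 15.90 in Ctrl at 3 months. The 6 had array means from 18.23 to 18.81. Atrial markers stood apart in Ctrl 3-month replicate 2, at a mean of 7.56 against 11.98 to 14.95 elsewhere, and adipocyte markers in Ctrl 2-month replicate 1, at 6.54 against 3.27 to 3.90. The error given with a difference is the SE from a limma fit to all 6 arrays, with n = 2 hearts per group. The labels call the hearts independent, and with so few arrays every value is imprecise. An exact permutation test of 2 against 2 arrays cannot give a p below 0.33.

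Sfrp1, Sfrp2 and Frzb were the members with wide differences, and all 3 were lower in TTg than in Ctrl at 3 months with no overlap between the groups. Sfrp4, Sfrp5, Wif1 and Dkk2 stayed within 1.66 on the log2 scale over all 6 arrays. At least 2-fold lower values without overlap were found for 3 of the 7 members in TTg against Ctrl at 3 months. The same rule was met by 2.54% of all features. Nothing is read from such shares in any comparison of the 3 groups. Which comparison was in view when the genes were chosen is not stated, so all are taken as used. Counting any difference without overlap, 4 members were lower and 1 higher, beside 19.3% and 19.1% of features, and 4 of 7 means were lower, beside 48.3%. None was at least 2-fold higher without overlap (1.18% of features). The median difference of the 7 members was −0.49, beside 0.01 for all features. It is the value of Sfrp4, whose signal lay near background, and does not describe a shift shared by the 7. In bulk tissue fewer cells of a type and less RNA per cell cannot be told apart.

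**Figure D1:**
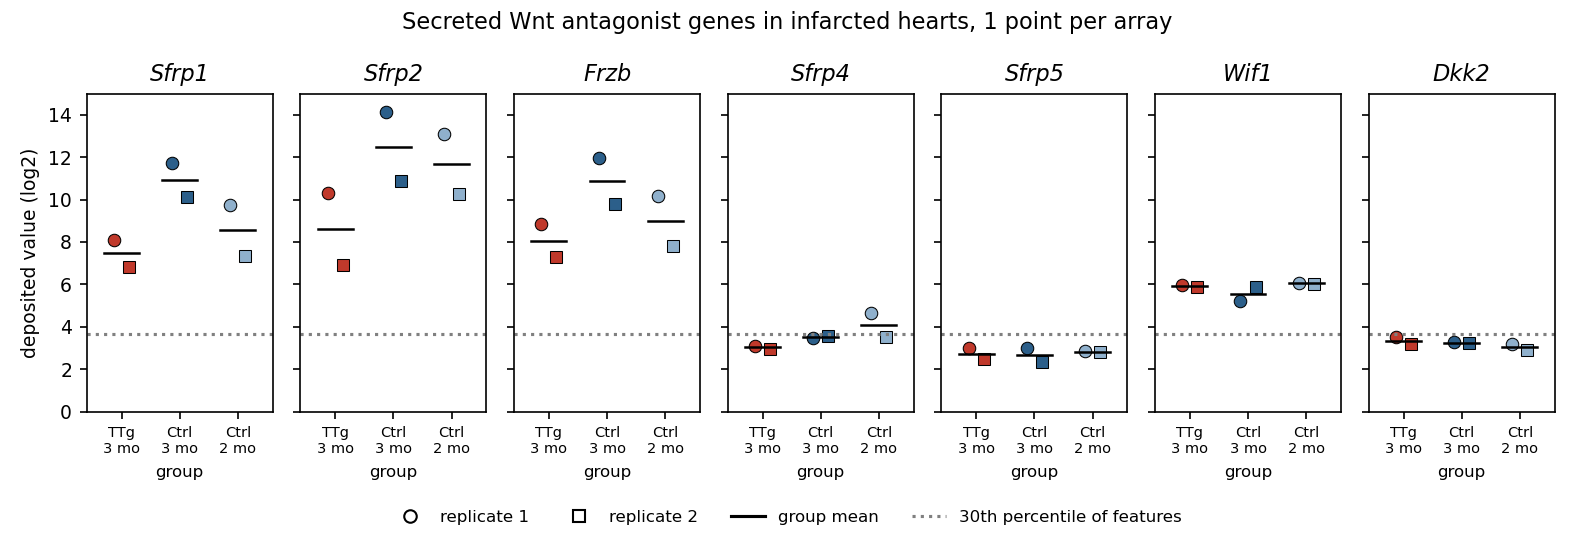
Deposited log2 value of each member on each array, by group, with circles for replicate 1, squares for replicate 2 and a bar for the group mean. The dotted line marks 3.65, the 30th percentile of mean signal over all features. Sfrp1, Sfrp2 and Frzb lie lower in TTg than in Ctrl at 3 months, and Sfrp5 and Dkk2 lie below the line on every array.

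Sfrp1, which binds Wnts and can also bind Frizzled receptors, was at 8.11 and 6.84 in TTg hearts and at 11.72 and 10.13 in Ctrl hearts at 3 months. In Ctrl hearts at 2 months it was at 9.76 and 7.33. Both TTg values lie under both Ctrl 3-month values, and they overlap with those of Ctrl at 2 months. The TTg mean of 7.48 ± 0.90 (SD, n = 2) was below the Ctrl 3-month mean of 10.93 ± 1.12 by −3.45 ± 0.87, which is 10.9-fold lower. Over each array left out, the difference ran from −4.25 to −2.66.

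Frzb, also called Sfrp3 and first described in cartilage, was at 8.85 and 7.27 in TTg and at 11.95 and 9.78 in Ctrl at 3 months. In Ctrl at 2 months it was at 10.16 and 7.79. The groups at 3 months do not overlap, though Ctrl 3-month replicate 2 lies only 0.93 above TTg replicate 1. The difference was −2.81 ± 0.97, or 6.99-fold lower in TTg. Leaving out Ctrl 3-month replicate 1 gave −1.72.

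Sfrp2, a Wnt-binding protein that in mice has been reported to bind the procollagen protease Bmp1, was at 10.31 and 6.93 in TTg and at 14.12 and 10.88 in Ctrl at 3 months. In Ctrl at 2 months it was at 13.09 and 10.26. It had the widest spread between replicates of the 7 genes, 3.38 in TTg and 3.24 in Ctrl at 3 months, and the gap between these groups was 0.57. The difference was −3.88 ± 1.46, or 14.7-fold lower in TTg. Leaving out TTg replicate 2 gave −2.19, and leaving out Ctrl 3-month replicate 1 gave −2.26.

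Replicate 1 was the higher of its pair for Sfrp1, Sfrp2 and Frzb in each of the 3 groups. The difference between replicates was 1.27, 1.59 and 2.43 for Sfrp1 in TTg, Ctrl at 3 months and Ctrl at 2 months. The labels do not say that equal replicate numbers mark a shared litter, batch or day.

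The other 4 members had small differences or dim signals. Wif1 was above the dim range on every array, at 5.99 and 5.87 in TTg, 5.23 and 5.86 in Ctrl at 3 months, with 6.05 and 6.04 in Ctrl at 2 months. Its difference between TTg and Ctrl at 3 months was 0.39 ± 0.28, with a gap of 0.01 between the groups, and leaving out Ctrl 3-month replicate 1 gave 0.07. Sfrp4, whose loss in people causes a bone disorder, was at 3.08 and 2.97 in TTg and at 3.46 and 3.56 in Ctrl at 3 months, all under the 30th percentile of features (3.65). In Ctrl at 2 months it was at 4.63 and 3.51. The difference between TTg and Ctrl at 3 months was −0.49 ± 0.37, between values that the arrays hardly separate from background.

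Sfrp5, known in mice as a protein secreted by fat, ran from 2.48 to 2.98 in TTg, from 2.32 to 2.99 in Ctrl at 3 months and from 2.79 to 2.84 in Ctrl at 2 months. Ctrl 2-month replicate 1 was at 10.34 for the fat cell hormone Adipoq, against 3.98 to 4.83 on the other arrays, and at 2.84 for Sfrp5. Dkk2 was at 3.51 and 3.18 in TTg, 3.26 and 3.22 in Ctrl at 3 months, with 3.18 and 2.90 in Ctrl at 2 months. Both genes lie under the 30th percentile on every array, so the arrays do not separate their levels from background.

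**Figure D2:**
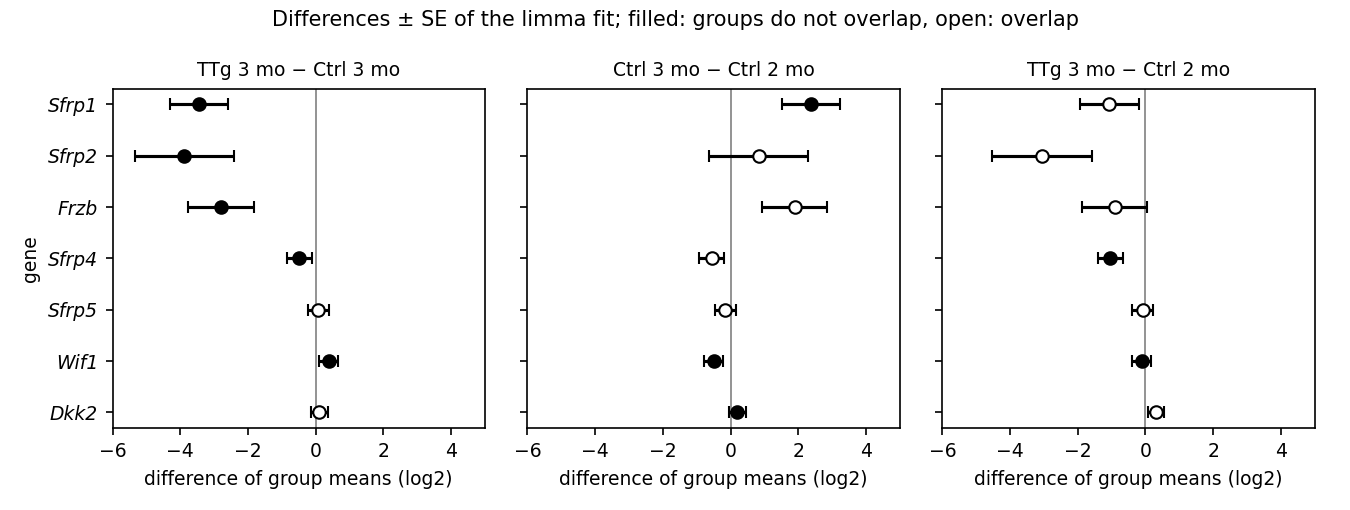
Difference of group means on the log2 scale (points) with the SE of the limma fit (bars) for each member in 3 comparisons, n = 2 arrays per group. Filled points mark groups that do not overlap. Sfrp1, Sfrp2 and Frzb are at −3.45, −3.88 and −2.81 for TTg against Ctrl at 3 months, and Sfrp1 is at 2.38 for Ctrl at 3 against 2 months.

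The comparison of Ctrl hearts at 3 and at 2 months asks how these genes stood at a later time after infarction without MGTH2A. It shares the Ctrl 3-month arrays with the comparison above. Sfrp1 had a mean of 10.93 at 3 months and 8.55 at 2 months, a difference of 2.38 ± 0.87 with no overlap, or 5.21-fold higher. Leaving out Ctrl 2-month replicate 2 gave 1.17, Ctrl 2-month replicate 1 gave 3.595 and Ctrl 3-month replicate 1 gave 1.59. Frzb had a mean of 10.87 at 3 months and 8.98 at 2 months, a difference of 1.89 ± 0.97, but Ctrl 3-month replicate 2 at 9.78 lies under Ctrl 2-month replicate 1 at 10.16. With 1 array left out the Frzb difference ran from 0.70 (Ctrl 2-month replicate 2) and 0.80 (Ctrl 3-month replicate 1) to 2.98 (Ctrl 3-month replicate 2) and 3.08 (Ctrl 2-month replicate 1). Sfrp2 differed by 0.83 ± 1.46 with overlap, and its sign turned with the array left out. It was −0.80 when Ctrl 3-month replicate 1 was dropped and −0.59 when Ctrl 2-month replicate 2 was dropped, but 2.44 and 2.24 when the other Ctrl 3-month or Ctrl 2-month array was dropped.

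Among the other members in this comparison Wif1 differed by −0.50 ± 0.28, Sfrp4 by −0.56 ± 0.37, Sfrp5 by −0.16 ± 0.31 and Dkk2 by 0.20 ± 0.25. Sfrp4 differed by 0.00 without Ctrl 2-month replicate 1. Sfrp1 was the only one of the 7 members at least 2-fold higher without overlap, and 1.54% of all features met that rule. None of the 7 was at least 2-fold lower without overlap, which held for 1.59% of features. Without a size limit, 1 member (Wif1) was lower and 2 (Sfrp1 and Dkk2) were higher without overlap, beside 17.4% and 18.3% of features, and 3 of 7 means were lower, beside 48.8%. The median difference of the members was 0.20, beside 0.01 for all features, and is the value of Dkk2, which was dim on every array.

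TTg hearts at 3 months were also set against Ctrl hearts at 2 months, which differ in both genotype and time. This comparison shares the TTg arrays with that of TTg against Ctrl at 3 months, and the Ctrl 2-month arrays with that of the Ctrl times. Sfrp2 had means of 8.62 in TTg and 11.68 in Ctrl at 2 months, a difference of −3.06 ± 1.46, with TTg replicate 1 at 10.31 just above Ctrl 2-month replicate 2 at 10.26. It was −1.36 with TTg replicate 2 left out and −1.64 with Ctrl 2-month replicate 1 left out, against −4.74 with TTg replicate 1 left out. Sfrp1 differed by −1.07 ± 0.87 and Frzb by −0.92 ± 0.97, both with overlap, and leaving out Ctrl 2-month replicate 1 turned them to 0.15 and 0.27. Over the arrays left out, the lowest values were −2.28 for Sfrp1 and −2.10 for Frzb. Sfrp4 was the only member at least 2-fold lower without overlap, at −1.04 ± 0.37, where 2.99% of all features met the rule. Its difference was −0.49 with Ctrl 2-month replicate 1 left out, −1.60 with Ctrl 2-month replicate 2 left out and −0.99, under 2-fold, with TTg replicate 2 left out. Wif1 was at −0.12 ± 0.28, Sfrp5 at −0.08 ± 0.31 and Dkk2 at 0.30 ± 0.25. In all 6 of 7 means were lower (47.3% of features), 2 members were lower without overlap (18.9%) and 0 higher (21.2%), and 0 were at least 2-fold higher without overlap (1.62%). The median of the members was −0.92, beside 0.02 for all features. It is the value of Frzb, whose groups overlap, and does not describe a shift shared by the 7.

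Several marker lists of non-muscle cells also had lower means in TTg than in Ctrl at 3 months, where 48.3% of all features had a lower mean. Of 7 fibroblast markers 6 were measured, none of them dim on all arrays, and their array means ran from 10.06 to 10.84 in TTg, from 11.08 to 12.11 in Ctrl at 3 months and from 10.57 to 12.18 in Ctrl at 2 months. The 4 late scar fibroblast markers ran from 3.81 to 5.04 in TTg, from 5.73 to 7.62 in Ctrl at 3 months and from 5.12 to 6.58 in Ctrl at 2 months. Of these 4, 3 had a lower and 1 a higher mean in TTg than in Ctrl at 3 months, and 1 of the lower ones was dim. Only 2 were at least 2-fold lower without overlap (2.54% of features). Comp differed by −4.885, and Cilp2 was the higher one, at 0.235. Macrophage markers, 4 of 5 measured, ran from 7.24 to 7.92 in TTg, from 8.28 to 9.94 in Ctrl at 3 months and from 8.70 to 9.63 in Ctrl at 2 months. Replicate 1 was the higher of its pair for these 3 lists in every group, as it was for Sfrp1, Sfrp2 and Frzb. The same held for activated fibroblast and endothelial markers, while for cardiomyocyte markers replicate 1 was the lower in every group. Activated fibroblast markers were mixed, with 3 of 5 lower and 2 higher in TTg than in Ctrl at 3 months. Among them Acta2, the smooth muscle actin of myofibroblasts and vessel walls, was at 14.67 and 14.62 in TTg, against 12.82 and 13.69 in Ctrl at 3 months (1.39 higher), while Postn and Meox1 differed by −3.09 and −3.08. All 5 epicardial markers had lower means in TTg, with array means from 4.68 to 4.84 in TTg and from 4.89 to 6.02 in Ctrl at 3 months. Endothelial markers ran from 12.11 to 12.50 in TTg, against 12.04 to 12.36 in Ctrl at 3 months. The part of fibroblast, macrophage and epicardial content in the members' differences was not tested.

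Relative to the mean of the 6 fibroblast markers on the same array, a scale chosen after the values were seen, Sfrp1 differed by −2.30 between TTg and Ctrl at 3 months and Frzb by −1.66. Sfrp2 differed by −2.73, and on this scale the groups did not overlap for any of the 3 genes. The marker mean itself did not overlap, at 10.06 to 10.84 in TTg and 11.08 to 12.11 in Ctrl at 3 months. Subtracting it can thus separate these groups for a gene that hardly differs. The share of all features without overlap on this scale is not given, so nothing is read from overlap here in any comparison. The SD within groups was 0.45 for Sfrp1, 0.65 for Frzb and 1.48 for Sfrp2. Wif1, Dkk2 and Sfrp5 went the other way without overlap, at 1.53, 1.25 and 1.22, beside 0.39, 0.10 and 0.08 on the deposited scale. Most of each of these relative differences comes from the marker mean, and Dkk2 and Sfrp5 were dim on every array. Sfrp4 was at 0.66 with overlap. The marker mean itself differed by −1.15, and 1 of the markers, Dcn, was between 17.56 and 19.25, close to the top of the scale. Between Ctrl at 3 and at 2 months the marker mean differed by 0.22, beside 2.38 for Sfrp1 itself, and relative to it Sfrp1 differed by 2.16, Frzb by 1.67 and Sfrp2 by 0.60. The groups did not overlap for Sfrp1 and Frzb and overlapped for Sfrp2. Between TTg and Ctrl at 2 months the relative differences were −0.14 for Sfrp1 and 0.01 for Frzb, both with overlap, and −2.13 for Sfrp2 without overlap. Dkk2, dim on every array, was at 1.23 without overlap, where the marker mean differed by −0.925. Sfrp1 and Frzb thus had the higher relative values in Ctrl at 3 months, and Sfrp2 the lower ones in TTg. For Sfrp2 the margin was narrow beside its SD of 1.48. TTg replicate 1 was at −0.53, against −0.20 in Ctrl 3-month replicate 2 and −0.31 in Ctrl 2-month replicate 2.

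**Figure D3:**
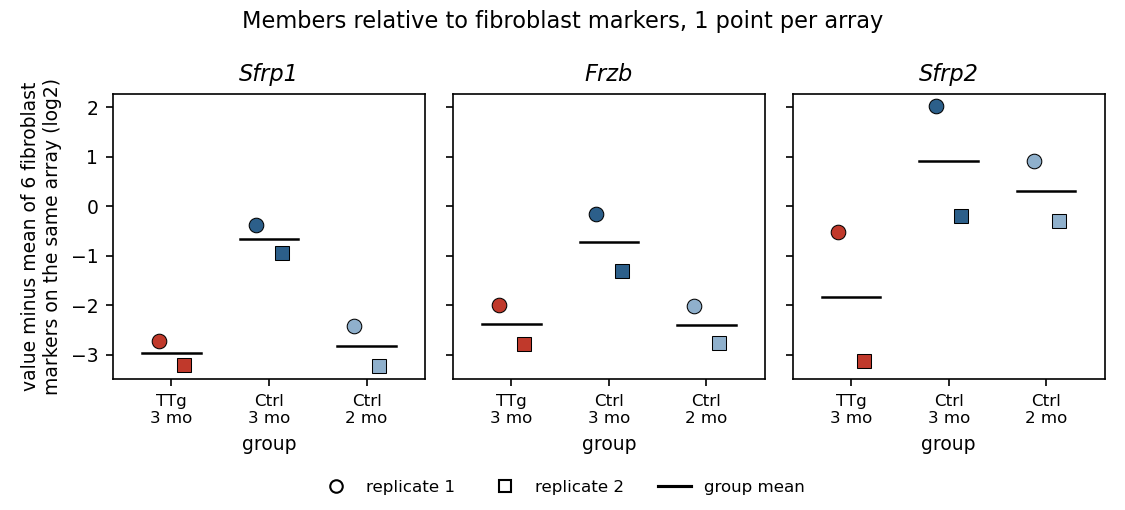
Log2 value of Sfrp1, Frzb and Sfrp2 minus the mean of 6 fibroblast markers on the same array, by group, with circles for replicate 1, squares for replicate 2 and bars for group means. For Sfrp1 and Frzb the Ctrl 3-month hearts lie above both other groups. For Sfrp2 the TTg hearts lie below both other groups, replicate 1 by a narrow margin.

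The profiles of Sfrp1 and Frzb over the 6 arrays were closer to each other than to any other feature compared. Likeness was measured as the root mean square difference of log2 values after each feature was centred on its own mean, over the 6 arrays and 13849 other features that were not dim. Frzb was the nearest to Sfrp1 at 0.33, followed by Meox1, a transcription factor of activated fibroblasts, at 0.40 and the matrix gene Fbln1 at 0.60. Meox1 and Fbln1 also followed Sfrp1 as the nearest to Frzb, both at 0.44. The root mean square spread of Sfrp1 itself was 1.71 and that of Frzb 1.56. All these features were measured in the same 6 RNA samples, and both their groups and their cell content are shared.

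Meox1 was at 6.67 and 4.44 in TTg, 9.30 and 7.98 in Ctrl at 3 months, with 7.04 and 5.06 in Ctrl at 2 months. Like Sfrp1 it was highest in Ctrl at 3 months, where both hearts lie above all 4 others. Fbln1 was at 11.57 and 10.74 in TTg, 14.21 and 12.68 in Ctrl at 3 months, with 13.41 and 11.27 in Ctrl at 2 months, with overlap between the Ctrl groups.

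The nearest to Sfrp2 were Comp, a matrix protein of cartilage and scar, at 0.52, Postn, a matrix protein of healing tissue, at 0.66 and the metallothionein Mt2 at 0.68, beside a spread of 2.30 for Sfrp2 itself. Comp was at 6.99 and 4.06 in TTg, 12.02 and 8.80 in Ctrl at 3 months, with 9.88 and 7.07 in Ctrl at 2 months. Sfrp2 lay at a distance of 1.16 from Sfrp1 and 1.07 from Frzb, and it ranked 238 among the features by nearness to Sfrp1.

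The remaining members varied little, so small distances say little about them. Paxip1, Cpsf7 and Eif2b1 were the nearest to Wif1, at 0.04 to 0.06 beside a spread of 0.28. Ppp1r14b, Dpm3 and Rps26 were the nearest to Sfrp4, at 0.08 to 0.10 beside 0.54, and each had its highest value in Ctrl 2-month replicate 1, as Sfrp4 did. Bicdl2, Zfp13 and Itgb7 were the nearest to Sfrp5, and Dagla, Foxj3 and Hsf4 to Dkk2.

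**Figure D4:**
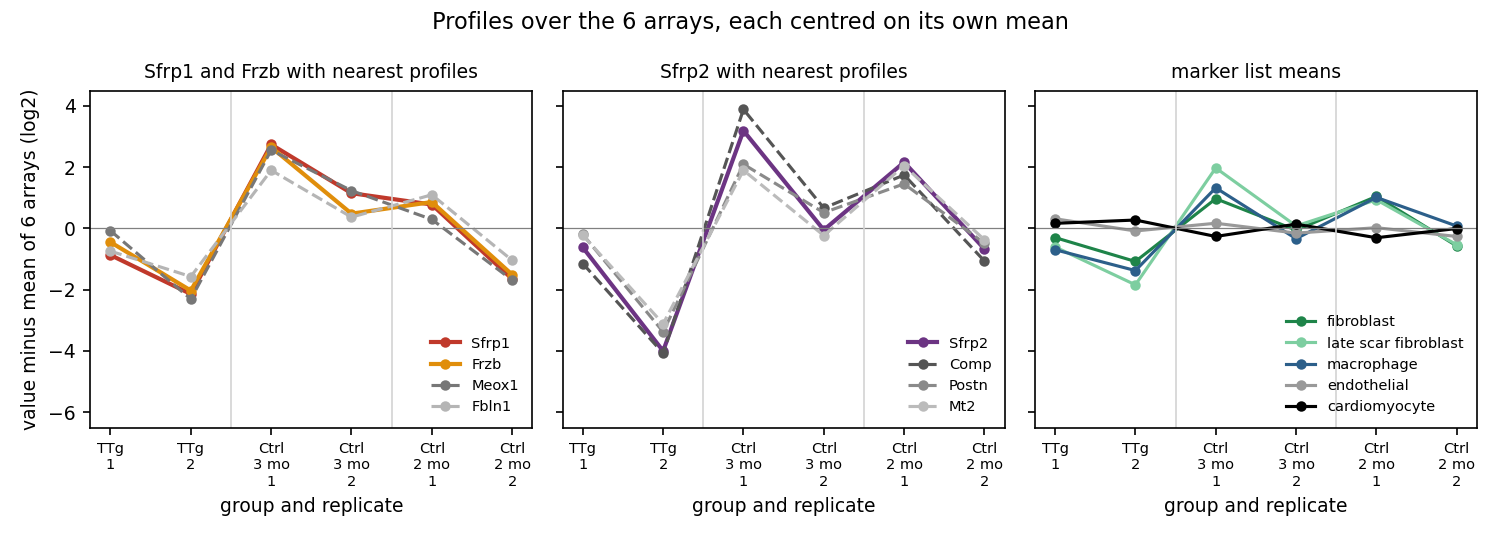
Log2 values on the 6 arrays after subtracting each line's own mean, for Sfrp1 and Frzb with their nearest profiles (left), Sfrp2 with its nearest profiles (middle) and means of marker lists (right). All genes drawn on the left and in the middle are lowest in TTg replicate 2, and all but Mt2 peak in Ctrl 3-month replicate 1. The endothelial mean stays nearly level. The cardiomyocyte mean holds markers at the top of the scale, so its flat line does not show an equal level.

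Promoter windows of 300 bases, from 250 before the gene start to 50 after it, were read from RefSeq on GRCm38.p6 and were found for 5 members, Sfrp2, Sfrp5, Frzb, Wif1 and Dkk2. The windows of Frzb and Sfrp2, which were lower in TTg, and of Wif1, which differed little, are printed to show what the letters hold. Capitals mark exact matches to the motifs searched.
Frzb promoter, chr2:80447347-80447646, minus strand: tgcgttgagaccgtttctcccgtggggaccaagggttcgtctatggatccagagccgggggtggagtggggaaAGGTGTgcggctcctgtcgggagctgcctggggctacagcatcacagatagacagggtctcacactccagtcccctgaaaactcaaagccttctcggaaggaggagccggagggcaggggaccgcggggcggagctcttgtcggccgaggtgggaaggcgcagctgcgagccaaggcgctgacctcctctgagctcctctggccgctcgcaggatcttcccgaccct
Sfrp2 promoter, chr3:83766071-83766370, plus strand: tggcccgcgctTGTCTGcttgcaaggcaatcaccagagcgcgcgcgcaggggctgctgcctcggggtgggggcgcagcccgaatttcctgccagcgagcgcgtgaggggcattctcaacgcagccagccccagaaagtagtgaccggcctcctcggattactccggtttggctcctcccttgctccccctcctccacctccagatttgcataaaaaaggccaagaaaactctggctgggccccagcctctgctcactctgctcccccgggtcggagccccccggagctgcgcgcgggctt
Wif1 promoter, chr10:121033754-121034053, plus strand: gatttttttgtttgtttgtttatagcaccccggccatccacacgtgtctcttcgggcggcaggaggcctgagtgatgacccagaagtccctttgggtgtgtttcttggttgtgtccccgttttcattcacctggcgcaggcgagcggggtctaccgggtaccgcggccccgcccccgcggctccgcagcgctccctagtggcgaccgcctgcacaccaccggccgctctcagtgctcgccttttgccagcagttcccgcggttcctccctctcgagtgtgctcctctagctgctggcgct

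The motifs were searched as exact letters on both strands. For TCF/LEF factors, the DNA-binding partners of beta-catenin, they were AACAAAG along with the forms that read ATCAAAG or otherwise TACAAAG or otherwise TTCAAAG. For the factors that MGTH2A is read to carry they were TAAAAATA for MEF2 factors, AGATAA for GATA factors, AGGTGT for T-box factors and CATCTG for HAND factors, and CAGACA was used for SMAD factors. Frzb held 1 T-box match, in a motif found in 13.7% of all 32851 promoter windows, and Sfrp2 held 1 SMAD match, found in 21.0%. Sfrp5 held 2 GATA matches (11.2% of windows), and Wif1 and Dkk2 held none of the motifs. No TCF/LEF, HAND or MEF2 match was found in the 5 windows, against 16.9%, 17.2% and 2.72% of all windows. No match overlapped another. The windows of Sfrp2, Frzb and Wif1 had GC contents of 66.0%, 64.7% and 63.0%, above the median of 52.7% for all windows.

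The rest of the Wnt pathway was covered by 9 lists of 124 genes, of which 119 were measured and the other 5 were not analysed here. In TTg against Ctrl at 3 months none of the 119 passed limma's test over all features, where 1 feature did (0.0045% of all). The smallest adjusted p among them was 0.646 (limma, Benjamini-Hochberg). Taken without adjustment, 6 genes were lower (5.04%) and 1 was higher (0.84%) with p under 0.05, beside 4.11% and 3.35% of all features. Their median difference was −0.04.

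The list of other secreted or membrane Wnt inhibitors is described on its own, because the 3 leading members were singled out by their differences. Of 17 measured genes of this list 9 had a lower and 8 a higher mean in TTg, beside 48.3% of all features with a lower mean. The median was −0.02, and none had an unadjusted p under 0.05. Igfbp4, which binds insulin-like growth factors and can block Wnt receptors, was at 9.60 and 8.99 in TTg and at 11.63 and 9.57 in Ctrl at 3 months (−1.30 ± 0.84), with overlap. Dkk3, a divergent member of the Dkk family, was at 9.31 and 7.93 in TTg and at 11.44 and 7.82 in Ctrl at 3 months (−1.01 ± 1.08), so its groups overlap. Kremen1, a receptor for Dkk proteins, differed by −0.53 ± 0.35 and the Wnt-cleaving protease gene Trabd2b by 0.56 ± 0.34.

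Wnt ligands were mostly dim. In 15 of the 19 the higher of the TTg and Ctrl 3-month means lay under the 30th percentile, and the list's median was −0.05. Wnt5a, which often acts through the polarity branch, was at 5.76 to 6.47 in TTg and 5.84 to 6.13 in Ctrl at 3 months and differed by 0.13 ± 0.32. Wnt9b differed by −0.34 ± 0.28 and Wnt10a by −0.09 ± 0.27. The 7 genes of Wnt secretion and transport had a median of 0.04, with the glypican Gpc6 at −0.83 ± 0.38.

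The 18 Frizzled and other Wnt receptor genes had a median of −0.12, with 12 lower and 6 higher means, beside 48.3% of all features with a lower mean. Fzd2 was at 7.18 and 5.36 in TTg, against 7.49 and 6.99 in Ctrl at 3 months (−0.97 ± 0.77), and Fzd1 differed by −0.84 ± 0.53. The co-receptor Lrp5 differed by −0.44 ± 0.25. For R-spondins, which enhance Wnt signals, and their Lgr receptors the median of 7 genes was −0.10, with Lgr5 at −0.30 ± 0.25.

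Among genes of the beta-catenin destruction complex and transducers, 12 of 19 measured had higher means in TTg and 6 lower, with a median of 0.14. None had an unadjusted p under 0.05, and over all features 48.3% of means were lower. Bcl9, a co-activator of beta-catenin, differed by 0.68 ± 0.44, its partner gene Pygo1 by 0.57 ± 0.31 and Dvl3 by 0.38 ± 0.30. In the polarity and calcium list, with a median of −0.13 over 16 genes, Prickle1 had the highest difference. It was at 7.27 and 7.81 in TTg and at 6.14 and 6.40 in Ctrl at 3 months (1.27 ± 0.27, adjusted p = 0.646 in limma). The kinase gene Prkca was at 8.19 and 8.31 in TTg and at 9.48 and 9.65 in Ctrl at 3 months (−1.31 ± 0.31, adjusted p = 0.646 in limma).

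Genes often used as beta-catenin targets were uneven. Of 11 measured, 6 had lower and 5 higher means in TTg, with a median of −0.32, and 4 had an unadjusted p under 0.05, all lower. Over all features 4.11% were lower and 3.35% higher at that p, and 48.3% of means were lower. Ccn5, a matricellular gene of fibroblasts, was at 6.93 and 5.66 in TTg and at 10.94 and 8.56 in Ctrl at 3 months (−3.46 ± 0.81, adjusted p = 0.646 in limma). Myc was at 6.16 and 6.24 in TTg and at 9.61 and 6.89 in Ctrl at 3 months, a difference of −2.05 ± 0.75 with Ctrl 3-month replicate 1 far above its pair. The adhesion receptor gene Cd44 differed by −1.76 ± 0.51 and Nkd2, an inhibitor of Dvl proteins, by −1.53 ± 0.37. Axin2, the most widely used readout of beta-catenin and named here after its values were seen, was at 4.88 and 5.24 in TTg and at 4.76 and 5.02 in Ctrl at 3 months. Its values overlap between these groups.

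Among genes of procollagen processing, the protease gene Bmp1 was at 6.77 and 7.08 in TTg and at 7.12 and 7.15 in Ctrl at 3 months (−0.21 ± 0.33). The procollagen protease enhancers Pcolce (−1.17 ± 0.54) and Pcolce2 (−1.09 ± 0.39) had lower values in TTg, and neither passed over all features (adjusted p = 0.685 and 0.661 in limma). These 2 genes and Bmp1, 3 of the 5 in the list, were lower with no overlap, beside 19.3% of all features. Tll1, also in the list, overlapped, at −0.055 ± 0.42.

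**Figure D5:**
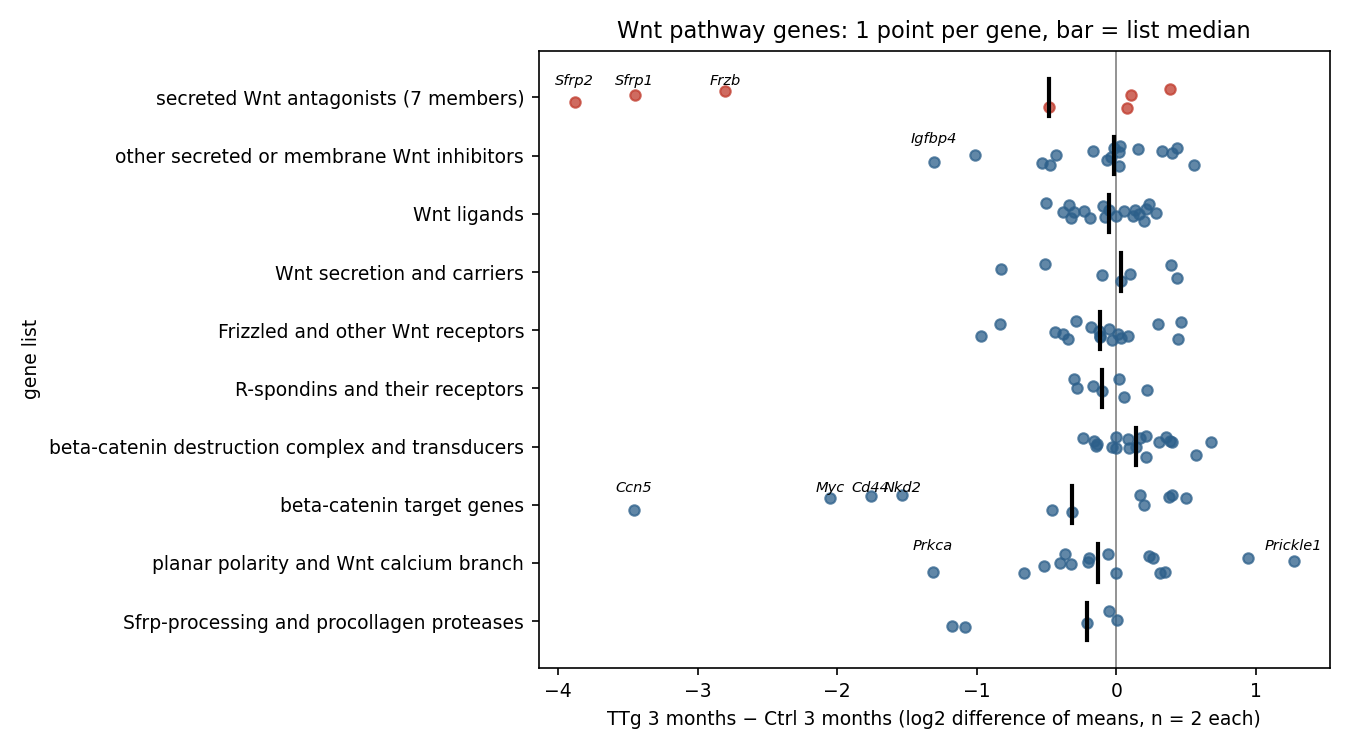
Log2 difference of means, TTg minus Ctrl at 3 months (n = 2 each), for each measured gene of the Wnt pathway lists, with 1 point per gene and a bar at the list median; points are spread up and down within a list for legibility. Sfrp1, Sfrp2, Frzb and Ccn5 lie farthest to the left, and the ligands, receptors and transducers lie within 1 of 0.

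Between Ctrl at 3 and at 2 months none of the 119 pathway genes passed over all features (smallest adjusted p = 0.465 in limma, 1 feature or 0.0045% of all passing). Taken without adjustment, 7 genes were higher (5.88%) and 6 lower (5.04%) with p under 0.05, beside 3.91% and 4.09% of all features. Kremen1 was at 10.34 and 10.16 at 3 months and at 8.71 and 9.13 at 2 months (1.33 ± 0.35), and Cd44 differed by 1.45 ± 0.51. Myc differed by 2.00 ± 0.75, with 9.61 and 6.89 at 3 months against 6.32 and 6.19 at 2 months, so Ctrl 3-month replicate 1 carries most of it. Among the lower genes Celsr3, a polarity cadherin, was at 8.52 and 8.26 at 3 months and at 9.30 and 10.15 at 2 months (−1.33 ± 0.48), and Prickle1 differed by −0.90 ± 0.27. Between TTg and Ctrl at 2 months none passed (smallest adjusted p = 0.340 in limma, 0 features or 0% of all passing, with 2156 at an unadjusted p under 0.05). Of the 119, 6 were lower and 3 higher with an unadjusted p under 0.05, beside 5.41% and 4.3% of all features. Ccn5 had the lowest difference of the 119, −3.66, where the Ctrl 2-month hearts were at 10.55 and 9.35. Both TTg values of Ccn5 lie below all 4 Ctrl values.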

How the data were processed

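RNA of 6 hearts was measured on mouse Clariom S arrays. Each array took 100 ng of RNA, and RNA integrity had to exceed 7.0, per the labels' protocols. The deposited values are log2 values per feature, made by the authors. Transcriptome Analysis Console 4.0 is named per the submitters' processing notes. The summary, background and normalization methods are not given in the sources used here. Symbols came from the platform annotation, with 1 symbol for 19572 features. No symbol of the 7 members was repeated.

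All 22206 features were fitted without further normalization with limma 3.58.1 in R 4.3.3, with 1 coefficient per group over all 6 arrays (3 residual and 4.13 prior degrees of freedom). Tests were two-sided with Benjamini-Hochberg adjustment over all features at 0.05. The pipeline was tested on simulated data. Members were given no p. A member was counted as lower or higher at a 2-fold difference with no overlap of the groups. Dim means under 3.65, the 30th percentile of the features' means.

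The members and lists were chosen with earlier results of these data known. The text names all members, up to 4 genes per list by size of difference between TTg and Ctrl at 3 months among those not dim, and the 3 nearest profiles of each member. Axin2, Dcn and Myl2 were chosen after their values were seen. Alternatives were an intensity trend or robust prior, quantile normalization, median centring, no dim features, the 2 compared groups alone, a replicate block, each array left out, and values relative to fibroblast markers. Protein sequences were not used here.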

Additional observations from a re-analysis of the deposited data

How the results depend on the processing

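In TTg against Ctrl at 3 months, 3 members were at least 2-fold lower without overlap under quantile normalization and median centring. The share of all features that met the rule is not given for these settings. With each array left out, Sfrp1, Sfrp2 and Frzb stayed at least 2-fold lower, with smallest differences of −2.66, −2.19 and −1.72. Groups that do not overlap stay so when an array is dropped, so that part of the rule could not fail. Dropping a Ctrl 2-month array leaves these differences unchanged. The members' median, which is the value of Sfrp4, was between −0.54 and −0.43 over the arrays left out. Quantile normalization and median centring kept the direction of Sfrp1, Sfrp2 and Frzb in all 3 comparisons. Leaving out 1 array turned Sfrp2 in Ctrl at 3 against 2 months (−0.80 to 2.44, against 0.83) and Sfrp1 and Frzb in TTg against Ctrl at 2 months (up to 0.15 and 0.27). In Ctrl at 3 against 2 months the members' median ran from −0.19 to 0.34 over the arrays left out, and the count of lower members was 0 to 1. In TTg against Ctrl at 2 months the median ran from −1.61 to −0.06 and the count of lower members from 0 to 4. Features past the adjusted threshold over the arrays left out ran from 0 to 2 for TTg against Ctrl at 3 months, from 0 to 6 for Ctrl at 3 against 2 months and from 0 to 22 for TTg against Ctrl at 2 months. These fits give a group reduced to 1 array the spread of the other groups. For TTg against Ctrl at 3 months 2 features passed with the 2 compared groups alone, against 1. For Ctrl at 3 against 2 months 0 passed with an intensity trend, with quantile normalization and without dim features, against 1. For TTg against Ctrl at 2 months 1 passed with a robust prior, against 0. The causes were not tested.

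With the replicate block 11 features passed for TTg against Ctrl at 3 months, 1 for Ctrl at 3 against 2 months and 5 for TTg against Ctrl at 2 months. The SE of the differences became 0.33 for Sfrp1, 0.26 for Sfrp2 and 0.28 for Frzb. Replicate deviations correlated across features at 0.120 to 0.136 between groups, and with 2 numbers that does not establish a pairing. No member's symbol was repeated, so the choice of feature had no alternative to run. Sfrp4, Sfrp5 and Dkk2 are limited by dim signal.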
